A study of Mus musculus with 16 samples.

Results

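The immediate early genes described here are 10 genes chosen by symbol, namely Atf3, Fos, Fosb, Jun, Junb, Egr1, Nr4a1, Cyr61, Myc and Ier2. All 10 were found among the 53372 genes of the count table, and all 10 passed the filter on low counts that left 17810 genes for testing. They were picked with earlier results of these libraries in view, so their levels, fold changes and calls across the 4 groups are given as a description, with no p-value. RNA was measured in livers of FVB/NCrl mice that received no diphenyl phosphate (CTRL) or diphenyl phosphate, an aryl phosphate ester abbreviated DPhP, at 0.1 mg/L (C1), 1 mg/L (C2) or 10 mg/L (C3). The livers of a group were pooled into 1 crude extract, and 4 analytical replicate libraries were made for each group, so n = 4 counts libraries and not animals. The effect of a concentration and the make-up of its pool cannot be told apart, and no source used here gives age, sex or length of exposure.

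Immediate early genes are transcribed within minutes of a growth, stress or hormone signal without new protein synthesis, through kinase cascades that act on factors already bound at their promoters. Their RNAs are short lived, and many of their products are themselves transcription factors. In liver the family is known for its induction during regeneration and after injury, and Atf3 for its induction by many forms of cellular stress.

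Read totals lay between 14434761 counts for C1-3 and 45109243 counts for C2-1. Hepatocyte markers were abundant, with 10 of them summing to 30001 to 82551 CPM. CPM stands here for the usual counts-per-library unit, with library sizes scaled by TMM factors. Libraries C2-3, C2-4 and C3-4 stood apart in RNA retained in the nucleus. An index of it, averaged over log2 CPM of Kcnq1ot1, Malat1, Neat1 and Xist, was 10.15, 10.07 and 9.97 in these and at most 9.39 in the other 13 libraries. Results are therefore given with and without them. In bulk liver RNA, fewer cells of a type and less RNA per cell cannot be told apart.

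The promoters of Atf3, Fos and Cyr61 are shown because these 3 genes were the members called higher in the C3 libraries, with Fosb, whose promoter held none of the motifs searched. Each window is the RefSeq sequence on GRCm38.p6, from 250 bases before to 50 bases after the start that RefSeq gives the gene, written 5′ to 3′ on the gene's strand. That start can differ from the 5′ end of the GENCODE gene model whose coordinates are given for each gene. It lies 34706 bp inside the model of Atf3 and 12577 bp inside that of Nr4a1. In the other 5 members searched it lies within 30 bp of the model's 5′ end. Capitals mark TGACGT, the core of the cAMP response element that ATF and CREB proteins bind, or its reverse complement ACGTCA, and the TATA box TATAAA. The windows are chr1:191183284-191183583 on the minus strand for Atf3, chr12:85473640-85473939 on the plus strand for Fos and chr3:145649936-145650235 on the minus strand for Cyr61, which the annotation calls Ccn1.
Atf3: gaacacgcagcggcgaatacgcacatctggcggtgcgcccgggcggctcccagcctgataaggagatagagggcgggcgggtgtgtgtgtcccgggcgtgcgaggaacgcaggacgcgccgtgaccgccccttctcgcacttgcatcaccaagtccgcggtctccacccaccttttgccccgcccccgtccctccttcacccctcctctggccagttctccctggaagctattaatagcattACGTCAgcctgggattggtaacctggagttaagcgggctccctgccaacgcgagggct
Fos: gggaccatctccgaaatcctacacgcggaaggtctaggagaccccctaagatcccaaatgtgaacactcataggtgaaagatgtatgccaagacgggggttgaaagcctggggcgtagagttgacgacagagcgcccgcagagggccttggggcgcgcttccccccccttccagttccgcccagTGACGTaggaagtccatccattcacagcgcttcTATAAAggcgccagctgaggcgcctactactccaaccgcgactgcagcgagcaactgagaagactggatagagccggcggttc
Cyr61: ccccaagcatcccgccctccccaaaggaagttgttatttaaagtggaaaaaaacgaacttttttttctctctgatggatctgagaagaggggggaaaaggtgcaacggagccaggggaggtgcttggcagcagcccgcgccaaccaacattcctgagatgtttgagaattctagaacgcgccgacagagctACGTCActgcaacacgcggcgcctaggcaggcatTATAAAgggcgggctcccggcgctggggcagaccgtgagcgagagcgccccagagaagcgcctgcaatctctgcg

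Promoter windows were searched for 7 of the 10 members, and those of Egr1, Myc and Ier2 were not part of the search. TGACGT, searched on both strands, was found in 3 of the 7, beginning at -8 in Atf3, -59 in Cyr61 and -66 in Fos relative to the start, and in 7.51% of all 32851 promoter windows. TATAAA was found at -33 in Fos, at -25 in Cyr61 and at 1 in Junb, whose RefSeq start is at -30 bp relative to the 5′ end of its gene model, and in 13.6% of all windows. None of the 7 windows held the full cAMP response element TGACGTCA, which contains TGACGT, the AP-1 site TGANTCA, the E-box CACGTG, the EGR1 site GCGTGGGCG, the NR4A site AAAGGTCA or a CArG box, which serum response factor binds. Those motifs occurred in 1.79%, 7.81%, 7.15%, 0.612%, 1.51% and 1.63% of all windows, in that order. The motif list was written with the expression values known, and a match is a description of letters and not of binding.

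The genes are compact. The median member spanned 4609.5 bp with 2534.5 bp of exon in 3.5 exon blocks, against 23629 bp, 4335 bp and 9 exon blocks for 13489 protein-coding genes tested. Per kilobase of exon, Ier2 was the most abundant member in CTRL at 57.6 ± 13.0 CPM per kb (SD, n = 4), followed by Egr1 at 37.4 ± 5.30, Jun at 33.9 ± 7.99 and Junb at 33.8 ± 3.22. Myc had 11.3 ± 1.65 CPM per kb in CTRL, Fos 10.1 ± 1.26, Cyr61 7.18 ± 0.965, Atf3 5.72 ± 0.667, Nr4a1 4.32 ± 0.665 and Fosb 0.202 ± 0.0469. In C3, Atf3 was the sixth of 10 by this measure, at 21.8 ± 3.22 CPM per kb, above Cyr61 at 17.0 ± 3.30 and Myc at 7.92 ± 1.65, whereas in CTRL it was the eighth. Each of 3 members overlaps a gene on the opposite strand. Junb overlaps Prdx2, with 24907 counts over the 16 libraries, Jun overlaps Junos, with 2850, and Atf3 overlaps Gm24748, with 0. Libraries were prepared with a strand-marking kit, but no source used here gives the strand setting of the counting.

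Atf3 stood above every CTRL library in all 12 treated libraries, with group means 2.90 times the CTRL mean in C1, 3.32 times in C2 and 3.82 times in C3. Cyr61 did so too, at 1.57 times the CTRL mean in C1, 1.497 times in C2 and 2.37 times in C3. The Fos mean was 1.76 times that of CTRL in C1 and 2.74 times in C3, Nr4a1 stood highest in C1 at 1.95 times, Fosb in C3 at 2.48 times, and Myc was lowest in C1 at 0.434 times. Jun, Junb, Egr1 and Ier2 were called in no comparison with CTRL. A gene was called where edgeR's quasi-likelihood test gave a Benjamini-Hochberg adjusted p under 0.05 over 17810 genes. By that rule 5 of 10 members were called in C1, 4 higher and 1 lower, against a background of 2.32% of all genes (0.938% higher and 1.39% lower). In C2 it was 3 of 10, 2 higher and 1 lower, against 18.3% of all genes (8.03% higher and 10.2% lower). In C3 it was 4 of 10, all higher, against 1.40% of all genes and 0.522% called higher. The libraries of the groups did not overlap for 4 members higher and 1 lower in C1, against 8.03% and 10.1% of all genes, for 2 members higher in C2, against 8.12%, and for 4 members higher in C3, against 5.53%. These counts carry no weight as evidence because the members were chosen with such values in view. The median member stood 0.49 above CTRL on the log2 scale in C1, 0.20 above in C2 and 0.70 above in C3, and the median of all genes tested was 0.01, 0.03 and 0.00. The 3 comparisons share the CTRL libraries.

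**Figure D1:**
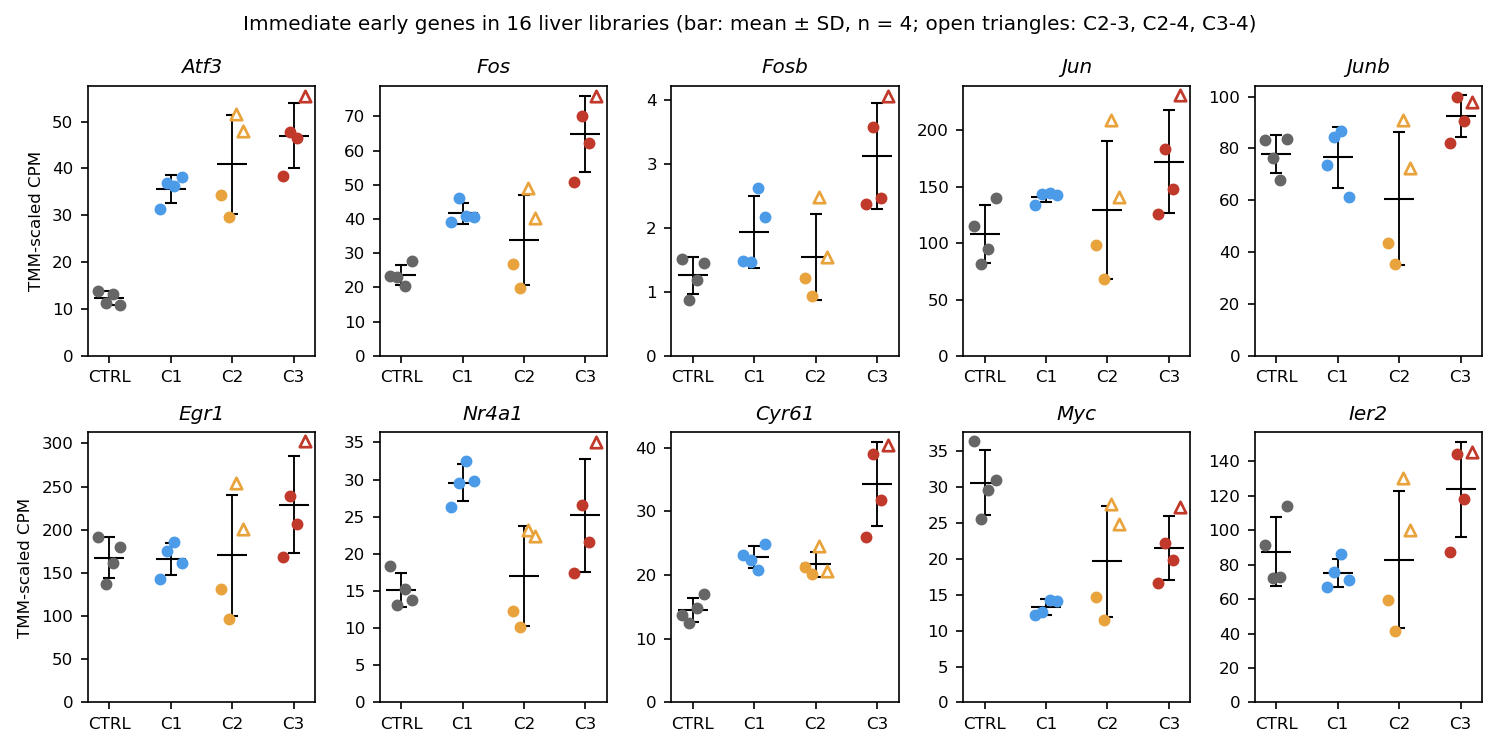
Level of each of the 10 members in every library, in CPM on a linear axis from 0, by group (CTRL, C1, C2, C3), with the 4 libraries of a group as points, the group mean and SD as a bar, and C2-3, C2-4 and C3-4 as open triangles. Atf3 lay at 29.7 CPM or more in all 12 libraries of treated mice, against 10.9 to 13.8 CPM in CTRL, and C2-3 and C2-4 are the upper points of the C2 group for all members except Cyr61.

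Atf3 encodes a basic leucine zipper protein of the ATF/CREB family that can repress or activate transcription depending on its partner. It lies at chromosome 1, 191170296 to 191218039 on the minus strand. Its level was 13.8, 11.2, 13.2 and 10.9 CPM in the CTRL libraries 1 to 4, 31.4, 36.8, 36.3 and 38.3 CPM in C1, 34.4, 29.7, 51.6 and 48.0 CPM in C2, and 38.4, 47.7, 46.6 and 55.4 CPM in C3. Each of the 12 libraries of treated mice lay above every CTRL library; the lowest of these, C2-2, had 29.7 CPM and the highest CTRL library 13.8 CPM. On the log2 scale Atf3 was 1.53 ± 0.16 higher in C1 than in CTRL, 1.73 ± 0.16 higher in C2 and 1.93 ± 0.16 higher in C3 (± SE from edgeR). The group means ran in the order CTRL, C1, C2, C3, but only CTRL and C1 did not overlap among neighbours in that order. Without C2-3, C2-4 and C3-4, the fit gave Atf3 log2 differences from CTRL of 1.52 ± 0.09 in C1, 1.39 ± 0.11 in C2 and 1.84 ± 0.10 in C3.

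**Figure D2:**
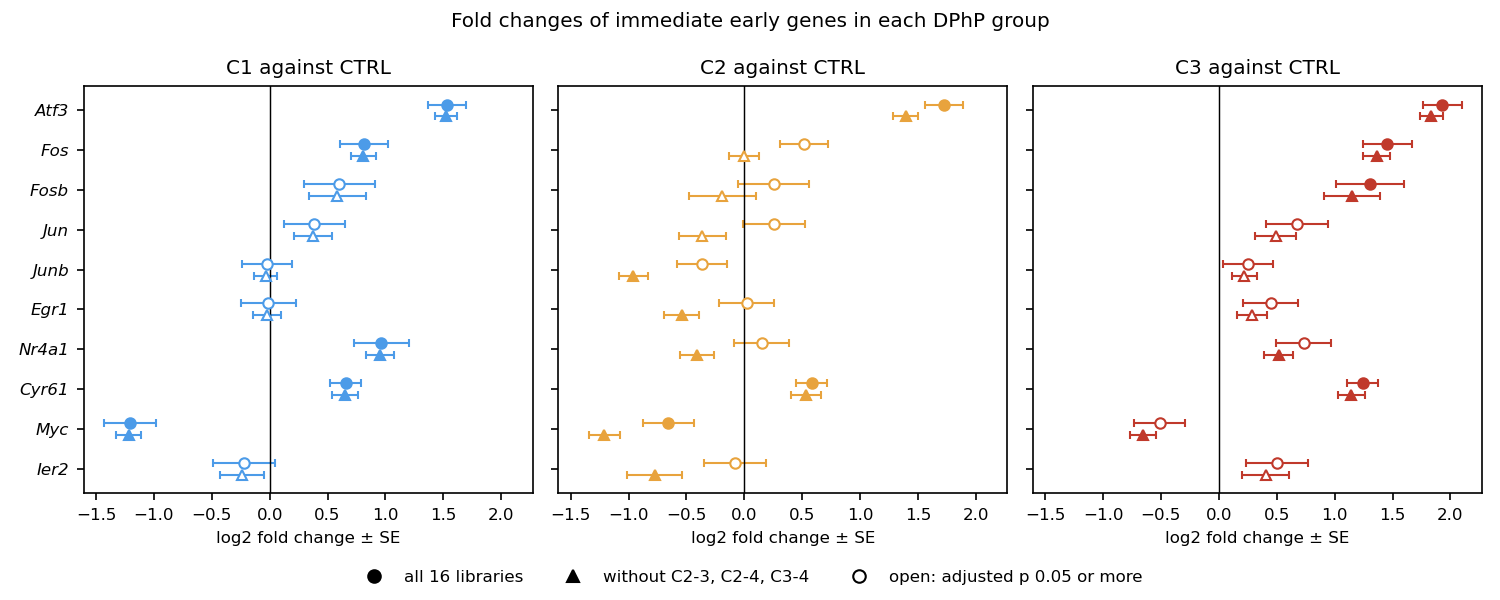
Log2 fold change of each member against CTRL in C1, C2 and C3, with bars for 1 SE from edgeR, for all 16 libraries (circles) and without C2-3, C2-4 and C3-4 (triangles), with open symbols where the adjusted p was 0.05 or more. Atf3 is the only member with points above 1 at all 3 concentrations in both fits, and in C2 every member has a lower value when the 3 libraries are left out.

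Fos encodes the partner of JUN proteins in the AP-1 complex, and it lies at chromosome 12, 85473890 to 85477273 on the plus strand. Its level was 23.4, 23.1, 20.4 and 27.6 CPM in the CTRL libraries, 39.2, 46.1, 40.8 and 40.6 CPM in C1, 26.9, 19.8, 48.9 and 40.2 CPM in C2, and 50.7, 70.2, 62.3 and 76.0 CPM in C3. All C1 and C3 libraries lay above all CTRL libraries and all C3 libraries lay above all C1 libraries, but in C2 the libraries C2-1 and C2-2 fell in or below the CTRL range. The log2 difference from CTRL was 0.82 ± 0.21 in C1, 0.51 ± 0.21 in C2 and 1.45 ± 0.21 in C3. Without C2-3, C2-4 and C3-4 it was 0.81 ± 0.11 in C1, -0.0013 ± 0.13 in C2 and 1.36 ± 0.11 in C3, so the C2 value rested on the libraries rich in nuclear RNA. The C1 call was lost when any of the 8 C1 and CTRL libraries was left out, with log2 differences of 0.75 to 0.90, and so was it without C3-2 or C3-3. In C2 Fos was called higher once C2-2 was left out, at 0.70. The C3 call held without each library in turn, at 1.37 to 1.55.

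Fosb, a FOS relative at chromosome 7, 19302696 to 19310051 on the minus strand, was the least abundant member. It had 1.52, 0.878, 1.18 and 1.45 CPM in the CTRL libraries, 1.49, 1.46, 2.62 and 2.18 CPM in C1, 1.22, 0.944, 2.48 and 1.54 CPM in C2, and 2.38, 3.58, 2.48 and 4.07 CPM in C3. Every C3 library lay above every CTRL library, while C1 and C2 overlapped with CTRL. The log2 difference from CTRL was 0.60 ± 0.31 in C1, 0.25 ± 0.31 in C2 and 1.31 ± 0.29 in C3. The C3 call was lost without C3-2, without C3-4 or without any CTRL library, with values of 1.16 to 1.42.

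Jun, the founding AP-1 subunit (chromosome 4, 95049034 to 95052222, minus strand), spanned 81.6 to 140.0 CPM in CTRL libraries, 134 to 144 CPM in C1, 68.2 to 209.5 CPM in C2 and 126 to 231 CPM in C3. Junb, a JUN relative that often restrains JUN activity (chromosome 8, 84974484 to 84978718, minus strand), ranged from 67.9 to 83.7 CPM in CTRL, 61.3 to 86.9 CPM in C1, 35.5 to 91.1 CPM in C2 and 82.2 to 100.03 CPM in C3. Their C2 libraries were spread widely, with C2-1 and C2-2 at 98.1 and 68.2 CPM for Jun and at 43.6 and 35.5 CPM for Junb. The log2 difference of Jun from CTRL was 0.39 ± 0.27 in C1, 0.26 ± 0.27 in C2 and 0.67 ± 0.27 in C3. For Junb it was -0.02 ± 0.22 in C1, -0.36 ± 0.22 in C2 and 0.25 ± 0.22 in C3. Neither was called in any comparison with CTRL. Without the 3 libraries rich in nuclear RNA, Junb was called lower in C2 at -0.96, and Jun in C2 stood at -0.36 with no call. Leaving out C2-3 alone was enough for the Junb call, at -0.61.

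Egr1 encodes a zinc finger transcription factor that binds GC-rich promoters. It ranged from 137 to 192 CPM in CTRL, 143 to 186 CPM in C1, 97.0 to 254 CPM in C2 and 169 to 302 CPM in C3, with overlap between all groups. The log2 difference from CTRL was -0.01 ± 0.24 in C1, 0.02 ± 0.24 in C2 and 0.45 ± 0.24 in C3. Without the 3 libraries rich in nuclear RNA it was called lower in C2, at -0.54.

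Nr4a1, an orphan nuclear receptor that takes part in the control of hepatic glucose metabolism, lies at chromosome 15, 101254269 to 101274795 on the plus strand. It had 18.4, 13.1, 15.3 and 13.8 CPM in the CTRL libraries, 26.4, 29.6, 32.5 and 29.8 CPM in C1, 12.3, 10.2, 23.2 and 22.3 CPM in C2, and 17.4, 26.6, 21.7 and 35.1 CPM in C3. It was the only member with its highest group mean in C1, and the C1 libraries lay above all CTRL and all C2 libraries. The log2 difference from CTRL was 0.96 ± 0.24 in C1, 0.15 ± 0.24 in C2 and 0.73 ± 0.24 in C3. The C1 call was lost without any of the 8 C1 and CTRL libraries, with values of 0.90 to 1.07. Without the 3 libraries rich in nuclear RNA the values were 0.95 in C1, -0.41 in C2 and 0.52 in C3, all called.

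Cyr61 encodes a secreted matrix protein that binds integrins and is a known target of YAP and of serum response factor. It lies at chromosome 3, 145646976 to 145649981 on the minus strand. It had 13.7, 12.4, 14.7 and 17.0 CPM in the CTRL libraries, 23.2, 22.3, 20.8 and 24.9 CPM in C1, 21.3, 20.2, 24.6 and 20.7 CPM in C2, and 26.0, 38.95, 31.8 and 40.4 CPM in C3. C1 and C2 shared a range just above CTRL, and every C3 library lay above both. The log2 difference from CTRL was 0.66 ± 0.14 in C1, 0.58 ± 0.14 in C2 and 1.24 ± 0.14 in C3. The C2 and C3 calls held without each library in turn, and the C1 call was lost without C1-4 or CTRL-2, with values over all refits of 0.59 to 0.74.

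Myc encodes a basic helix-loop-helix leucine zipper factor that drives growth and ribosome synthesis, and it lies at chromosome 15, 61985391 to 61990374 on the plus strand. It had 36.4, 25.5, 29.6 and 31.1 CPM in the CTRL libraries, 12.2, 12.5, 14.2 and 14.2 CPM in C1, 14.7, 11.5, 27.6 and 24.8 CPM in C2, and 16.7, 22.2, 19.9 and 27.3 CPM in C3. All C1 libraries lay below all CTRL libraries, while C2-3 and C3-4 reached into the CTRL range. Its group means ran C1, C2, C3 and CTRL from low to high, and it was the only member with its highest mean in CTRL. The log2 difference from CTRL was -1.21 ± 0.22 in C1, -0.66 ± 0.22 in C2 and -0.51 ± 0.22 in C3. The C1 call held without each library in turn. The C2 call was lost without any C1 or CTRL library and without C2-1, C2-2, C3-2 or C3-3, with values over all refits of -0.86 to -0.47. Without the 3 libraries rich in nuclear RNA it was called lower at all 3 concentrations, with values of -1.22 in C1, -1.21 in C2 and -0.66 in C3.

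Ier2, an early response transcriptional regulator at chromosome 8, 84661331 to 84662852 on the minus strand, ranged from 72.1 to 114 CPM in CTRL, 67.3 to 86.0 CPM in C1, 41.6 to 130.5 CPM in C2 and 87.1 to 145 CPM in C3. It was not called in any comparison with CTRL, with log2 differences of -0.23 ± 0.27 in C1, -0.08 ± 0.27 in C2 and 0.50 ± 0.27 in C3. Its C2 libraries were the most spread, and without C2-3, C2-4 and C3-4 it was called lower in C2, at -0.78.

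In all members except Nr4a1 the C3 mean was the highest of the 3 treated groups. In C3 against C1, 1 of 10 was called, Cyr61 at 0.59 ± 0.13, against 0.354% of all genes called higher. That count was 0 without any C1 library and without C2-1, C2-4, C3-2, C3-3, C3-4, CTRL-1 or CTRL-3. The libraries did not overlap for 5 of 10, namely Atf3, Fos, Cyr61, Myc and Ier2, all higher, against 3.63% of all genes. In C3 against C2, 2 of 10 were called, Fos at 0.94 ± 0.21 and Cyr61 at 0.66 ± 0.13, against 1.17% of all genes called higher, and these were also the 2 members whose libraries did not overlap, against 3.50%. The count was 0 without C2-1, C3-2 or C3-3 and 4 without C2-3. No member was called in C2 against C1 by edgeR, against 2.06% of all genes, with 2 of 10 at an unadjusted p under 0.05 and 1 by DESeq2. Nr4a1 was the only member whose C2 and C1 libraries did not overlap, at -0.81 ± 0.24, against 6.15% of all genes lower in this way.

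The 4 libraries of a group came from 1 extract, yet in C2 and C3 the members were high or low together among them. In the C3 group, all 10 members lay above their group mean in C3-2 and C3-4 and all 10 lay below it in C3-1 and C3-3. In the C2 group, all 10 lay above it in C2-3 and 9 in C2-4, Cyr61 being the exception, and all 10 lay below it in C2-1 and C2-2. The median deviation of the members was -0.68 log2 units in C2-2 and 0.64 in C2-3, whereas the median over all genes lay between -0.04 and 0.04 in every library. In CTRL-2 all 10 lay below the group mean, and in CTRL-1 and CTRL-4 8 of 10 lay above it, and in CTRL-3 3. The C1 libraries were closer, with 1, 7, 8 and 6 members above the mean in C1-1 to C1-4 and median deviations of -0.14, 0.02, 0.12 and 0.02. Of 26 other immediate early genes, 24 lay above the group mean in C2-3 and 22 in C2-4, 4 in C2-1 and 2 in C2-2, and 2, 17, 10 and 25 lay above it in C3-1 to C3-4. Read totals differed among these libraries too, at 45109243, 40652089, 15611309 and 16311207 counts in C2-1 to C2-4. In C3-1 to C3-4 they were 33189711, 20343210, 19400712 and 18854980. Protein-coding genes held 59.4% of the counts in C2-4, against 82.8%, 86.2% and 75.5% in C2-1 to C2-3. The part of read depth or of this share in the members' values was not tested.

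**Figure D3:**
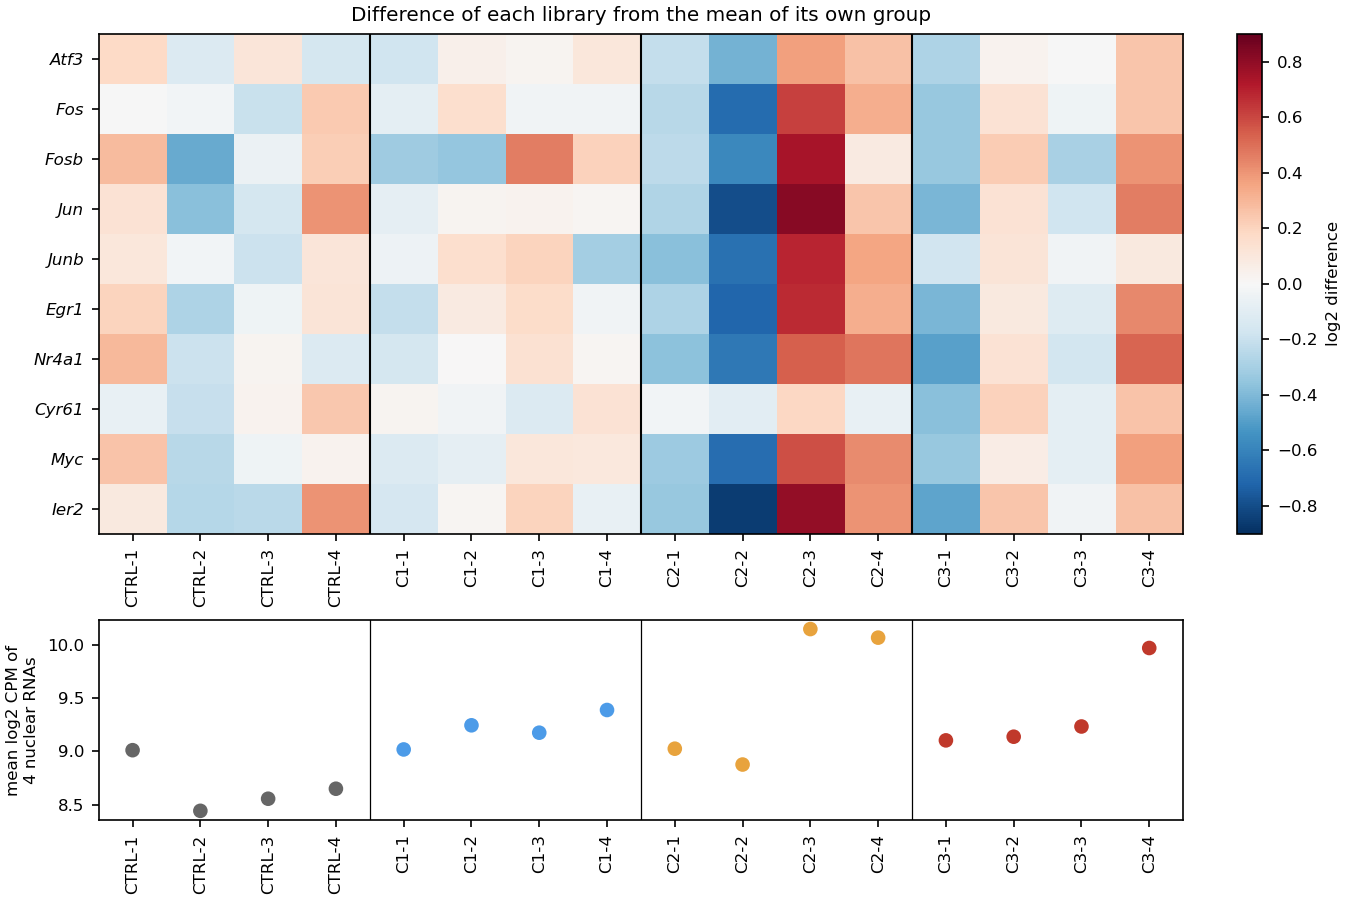
Upper panel, colour for the deviation of each member (rows) in every library (columns) from the mean of its own group, in log2 units; lower panel, mean log2 CPM of 4 RNAs retained in the nucleus. The columns C2-2 and C2-3 differ most, with medians of -0.68 and 0.64. In C3-2 and C3-4 all 10 members are above the group mean, with nuclear indices of 9.14 and 9.97.

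Cyr61 and Atf3 varied least within groups, with an SD of 0.193 and 0.243 log2 units over 4 libraries a group, and Jun and Ier2 varied most, with 0.431 and 0.444. Among genes of like level, Cyr61 stood at the 51.5 percentile of this spread and Atf3 at the 67.3, while 7 of the other 8 members stood between 87.4 and 96.6. The nuclear RNA index, which had 10.15 and 10.07 log2 CPM in C2-3 and C2-4, was 9.03 and 8.88 in C2-1 and C2-2, 9.97 in C3-4 and 9.10 to 9.23 in the other C3 libraries. The index also ran from 9.02 to 9.39 in C1, against 8.44 to 9.01 in CTRL. In CTRL-1 to CTRL-4 it was 9.01, 8.44, 8.56 and 8.65, with 8, 0, 3 and 8 members above the group mean. In C1-1 to C1-4 it was 9.02, 9.25, 9.18 and 9.39, with 1, 7, 8 and 6 above. For C3-1 to C3-4 the index was 9.10, 9.14, 9.23 and 9.97, with 0, 10, 0 and 10 above. The part of nuclear RNA in these differences was not tested.

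The C2 values depended on the libraries rich in nuclear RNA. Leaving these out kept only C2-1 and C2-2 in the C2 group, and in both all 10 members lay below the C2 mean. C2-1 and C2-2 also had the highest read totals of all libraries, at 45109243 and 40652089 counts. Without C2-3, C2-4 and C3-4, edgeR on 18468 genes called 2 of 10 members higher in C2 and 5 lower (Junb, Egr1, Nr4a1, Myc and Ier2), against 28.0% of all genes (12.7% higher and 15.3% lower), where all libraries gave 2 higher and 1 lower. In C3 it called 5 higher and 1 lower, against 6.09% (2.41% higher and 3.68% lower), and in C1 4 higher and 1 lower, against 14.6% (6.52% higher and 8.04% lower). In C2 against C1 it called 5 lower, against 9.43% of all genes, and in C3 against C1 it called Fos, Cyr61 and Myc higher, against 1.68%. In C3 against C2 all 10 members were called higher without those libraries, against 7.84% of all genes, at log2 differences from 0.44 for Atf3 to 1.36 for Fos. Atf3 and Cyr61 were the members called higher in both C2 fits.

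The gene most like Atf3 across the 16 libraries was Chka, which encodes choline kinase alpha, by the root mean square difference of centred log2 CPM among 12262 genes, at 0.320. Its mean was 20.6 CPM in the CTRL libraries, 39.0 CPM in C1, 45.4 CPM in C2 and 48.8 CPM in C3. Next came the long noncoding RNA Bvht at 0.321, AC123619.1 at 0.355, Tnnc1, cardiac troponin C, at 0.396 and Paxx, a DNA end-joining factor, at 0.401. Of the members, Cyr61 ranked 18 by this measure, Fos 36 and Fosb 322, and Myc came 12006 of 12262, near the far end.

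Other immediate early genes were listed with earlier results in view. Of 31 listed, 26 passed the filter, and Egr4 was at 0 in all libraries. By edgeR over all genes, 0 of 26 rose and 4 fell in C1, and 4 rose and 6 fell in C2, against 2.32% of all genes called in C1 and 18.3% in C2. None was called in C3, against 1.40% of all genes, while 7 had an unadjusted p under 0.05 and DESeq2 called 3. The median log2 difference from CTRL was -0.12 in C1, -0.04 in C2 and 0.03 in C3. Gadd45g, a stress-response gene linked to growth arrest, fell to 24.0 ± 2.59 CPM in C1 against 78.5 ± 12.5 CPM in CTRL, by 1.71 ± 0.30 log2 units (edgeR adjusted p = 0.00488), and stood at 76.5 ± 20.7 CPM in C3. Per1, a circadian clock repressor that is also an early gene, fell to 21.1 ± 2.00 CPM in C1 and 22.6 ± 7.73 CPM in C2, against 46.2 ± 5.65 CPM in CTRL (edgeR adjusted p = 0.00866 and 0.00326). The C3 mean of Gadd45g was higher than that of C1 by 1.67 ± 0.30 log2 units (edgeR adjusted p = 0.00746), and Per1 was higher in C3 than in C1 by 1.07 ± 0.22 (adjusted p = 0.0182). Maff, a small MAF partner of bZIP proteins, fell by 1.05 ± 0.24 in C1 (adjusted p = 0.0254), a call lost without any C1 or CTRL library except C1-3, at -1.10 to -0.99. In C2 Maff fell by 0.90 ± 0.24 (edgeR adjusted p = 0.0142), a call that held without each library in turn. Gadd45a, a growth arrest gene, rose by 0.90 ± 0.21 in C2 (edgeR adjusted p = 0.00807), to 58.9 ± 23.5 CPM against 31.4 ± 2.74 CPM in CTRL. Ctgf, named after its value was seen, was the remaining call in C1, and fell by 0.87 ± 0.19 (adjusted p = 0.0218), a call lost without C1-1, C1-2, C1-4, CTRL-1, CTRL-3 or CTRL-4, at -1.02 to -0.77. Without the 3 libraries rich in nuclear RNA, 4 rose and 10 fell in C1, 4 rose and 13 fell in C2, and 2 rose and 3 fell in C3, where 14.6%, 28.0% and 6.09% of all genes were called in those comparisons.

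**Figure D4:**
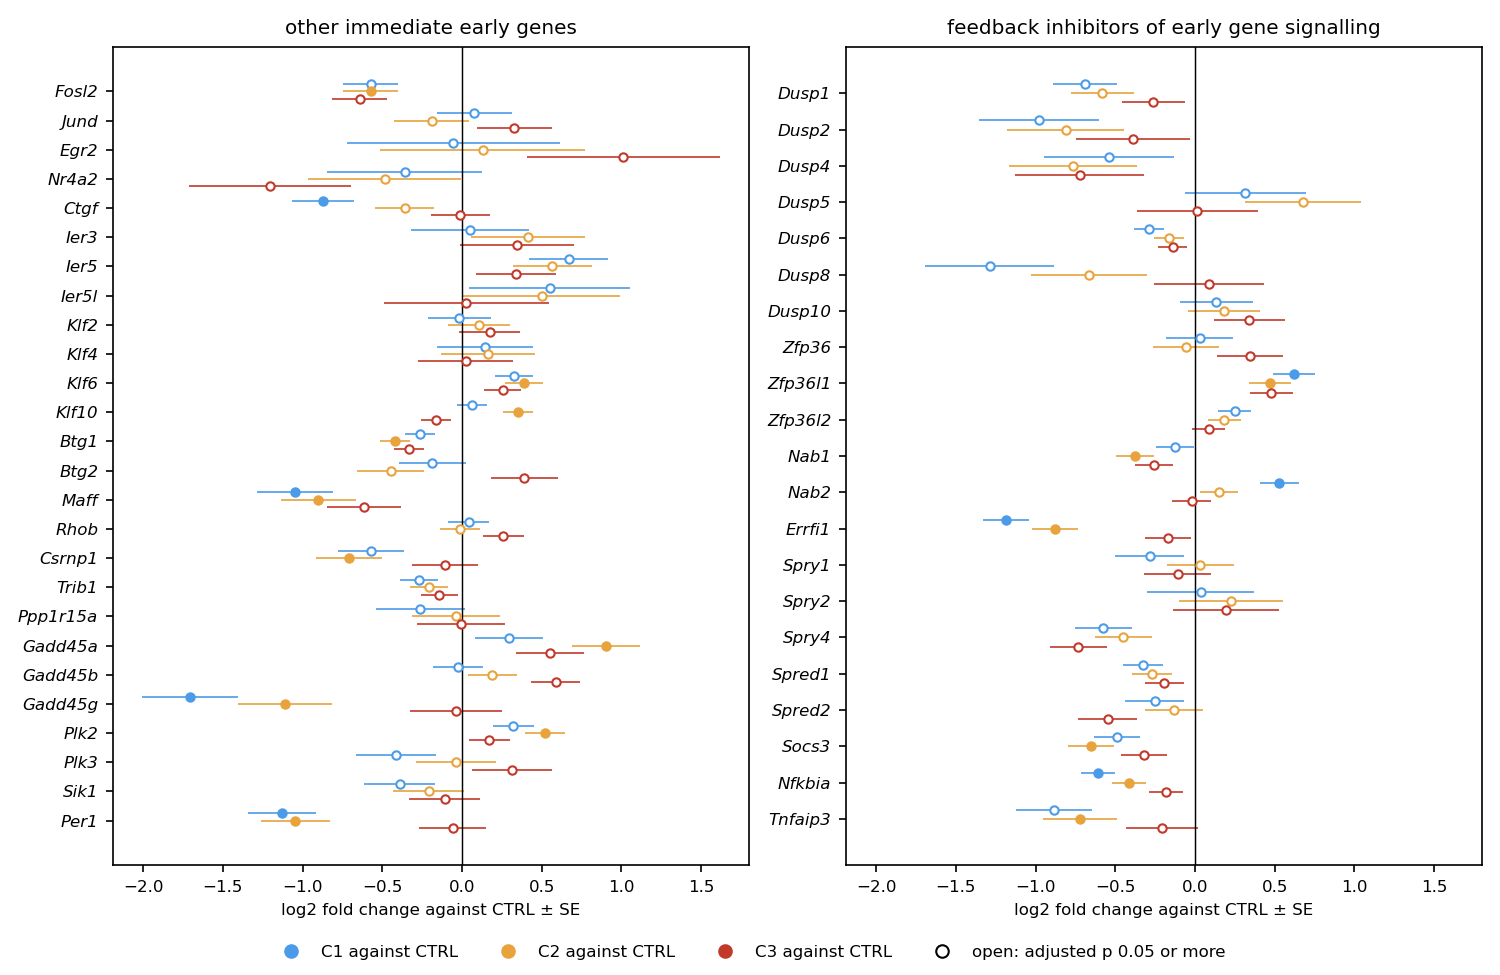
Log2 fold change against CTRL, with bars for 1 SE from edgeR, of the 26 other immediate early genes tested (left) and of 21 feedback inhibitors (right), in C1, C2 and C3, filled where the adjusted p was under 0.05. Gadd45g, Per1 and Errfi1 lie well below 0 in C1 and C2 and near 0 in C3.

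Feedback inhibitors of the signals that switch on early genes, such as phosphatases and RNA-decay factors, were 21 genes, all tested. In C1, 2 rose and 2 fell, against 2.32% of all genes called, and in C2 1 rose and 5 fell, against 18.3%. In C3 none was called, against 1.40%, with 5 at an unadjusted p under 0.05 and 2 by DESeq2. Errfi1, an inhibitor of the EGF receptor, fell to 497 ± 24.96 CPM in C1 and 614 ± 127 CPM in C2, against 1130 ± 44.6 CPM in CTRL (edgeR adjusted p = 0.000206 and 0.000646). It stood at 1003 ± 87.5 CPM in C3, above C1 by 1.01 ± 0.14 log2 units (edgeR adjusted p = 0.000777). Zfp36l1, which promotes the decay of AU-rich messenger RNAs, rose by 0.62 ± 0.13 in C1 (adjusted p = 0.0176) and by 0.47 ± 0.13 in C2 (adjusted p = 0.0212). The C1 call was lost without C1-2, C1-3, C1-4, CTRL-2 or CTRL-3, at 0.57 to 0.67, and the C2 call without C2-4, CTRL-2 or CTRL-3, at 0.42 to 0.52. Socs3, an inhibitor of cytokine signalling, fell by 0.65 ± 0.14 in C2 (adjusted p = 0.00533). Tnfaip3, an inhibitor of NF-kB signalling, fell by 0.72 ± 0.23 in C2 (adjusted p = 0.0399), a call lost without any CTRL library or without C2-1, C2-2, C2-4 or C3-2, at -0.86 to -0.64. With the 3 libraries left out, 2 rose and 8 fell in C1, 1 rose and 10 fell in C2, and 1 rose and 4 fell in C3, against 14.6%, 28.0% and 6.09% of all genes called.

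Of 29 kinases and transcription factors upstream of the early genes, none was called in C1 or C3 by edgeR, against 2.32% and 1.40% of all genes, with 3 and 2 at an unadjusted p under 0.05 and 1 and 0 by DESeq2. In C2, 2 of 29 rose and 0 fell, against 8.03% of all genes called higher and 10.2% lower there. Those that rose were Elk3, an ETS partner of serum response factor, by 0.68 ± 0.14 (adjusted p = 0.00291), and its relative Elk4 by 0.47 ± 0.10 (adjusted p = 0.004). With C2-3, C2-4 and C3-4 left out, 1 rose and 0 fell in C1, 3 rose and 3 fell in C2, and 1 rose and 0 fell in C3, against 14.6%, 28.0% and 6.09% of all genes.

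Among 23 dimer partners and relatives of AP-1, ATF and MYC proteins, 0 rose and 2 fell in C1, 3 rose and 6 fell in C2, and 1 rose and 0 fell in C3, against 2.32%, 18.3% and 1.40% of all genes called. The gene that rose in C3 was Atf4, the stress-response factor that can dimerize with bZIP proteins and is known to induce Atf3, at 118 ± 4.21 CPM in C3 against 82.3 ± 4.25 CPM in CTRL (log2 difference 0.52 ± 0.09, edgeR adjusted p = 0.00495). It is named after its value was seen. It rose in C2 too, by 0.37 ± 0.09 (edgeR adjusted p = 0.00912), and in C1 it stood 0.32 ± 0.09 higher (adjusted p = 0.0726). Cebpd, a bZIP factor of the acute phase response, fell by 0.80 ± 0.15 in C1 (adjusted p = 0.00869). Jdp2, a repressor of AP-1, fell by 1.08 ± 0.35 in C2 (adjusted p = 0.039), a call lost without C1-3, C2-1, C2-2, CTRL-1, CTRL-2 or CTRL-4, at -1.20 to -0.87, and with the replicate number as a block (adjusted p = 0.0509). In a fit without C2-3, C2-4 and C3-4, 4 rose and 5 fell in C1, 4 rose and 6 fell in C2, and 2 rose and 1 fell in C3, and 14.6%, 28.0% and 6.09% of all genes were called.

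Of 24 genes listed as MYC targets, 0 rose and 2 fell in C1, against 2.32% of all genes called, and 2 rose and 3 fell in C2, against 18.3%. None was called in C3, against 1.40%, with 4 at an unadjusted p under 0.05 and 1 by DESeq2. The median log2 difference from CTRL was -0.16 in C1, -0.13 in C2 and -0.0023 in C3. Odc1, which makes polyamines, fell by 0.46 ± 0.11 in C1 (edgeR adjusted p = 0.0416) and by 0.58 ± 0.11 in C2 (adjusted p = 0.00248). Bop1, a ribosome assembly factor, fell by 0.60 ± 0.12 in C1 (adjusted p = 0.0105) and by 0.66 ± 0.12 in C2 (adjusted p = 0.00115), whereas Ccnd2, a D-type cyclin, rose by 0.70 ± 0.12 in C2 (adjusted p = 0.000811). The Odc1 call in C1 was lost without any C1 or CTRL library and without C3-1 or C3-3, at -0.50 to -0.39, and with the replicate number as a block (adjusted p = 0.0502). When those 3 libraries were left out, 1 rose and 4 fell in C1, 4 rose and 7 fell in C2, and 0 rose and 3 fell in C3, beside 14.6%, 28.0% and 6.09% of all genes.

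Markers of several cell types moved with the groups, and their part in the members' values was not tested. The counts of markers called stand against 2.32% of all genes called for C1, 18.3% for C2 and 1.40% for C3. Summed sinusoidal endothelial markers had 322 to 399 CPM in C2 against 246 to 259 CPM in CTRL, with 9 of 14 called higher. None was called in C1 or C3 by edgeR, with 5 and 3 at an unadjusted p under 0.05 and 1 and 0 by DESeq2. Summed neutrophil markers had 5.01 to 8.002 CPM in C3 against 2.71 to 4.08 CPM in CTRL, over 9 genes of which 3 were tested. None of these was called by edgeR, while all 3 had an unadjusted p under 0.05 and DESeq2 called 2. Summed T, NK and B cell markers had 17.5 to 23.1 CPM in C1 against 12.4 to 14.9 CPM in CTRL, with 1 of 14 called higher. They had 14.3 to 18.2 CPM in C2, with 3 called higher and 1 lower, and 10.1 to 13.8 CPM in C3. In C3 edgeR called none of them, with 3 at an unadjusted p under 0.05 and 1 by DESeq2. Summed hepatocyte markers had 30001 to 73844 CPM in C2 against 68438 to 82551 CPM in CTRL, with 5 of 10 called lower, and 36464 to 64251 CPM in C3, with none called by edgeR, 3 at an unadjusted p under 0.05 and 1 by DESeq2. Summed macrophage markers had 448 to 727 CPM in C2 against 657 to 792 CPM in CTRL, with 3 of 15 called lower, against 10.2% of all genes. Of 9 intestinal epithelium markers tested, 4 were called higher in C1, 7 lower in C2 and 7 lower in C3. Their median log2 difference from CTRL was 1.63 in C1, -4.08 in C2 and -3.80 in C3, with 8, 1 and 1 of the 9 above CTRL. Over the 13 listed, the sum was 61.9 to 89.7 CPM in CTRL and 87.5 to 105 CPM in C1. It was 56.4 to 89.1 CPM in C2 and 54.0 to 65.4 CPM in C3. The sum follows the most abundant markers and the median counts each tested marker alike, so the sum need not move with the median. No listed marker of these 6 cell types was at 0 in all libraries. Without C2-3, C2-4 and C3-4, 14.6%, 28.0% and 6.09% of all genes were called in C1, C2 and C3. Hepatocyte markers then had 1 higher and 4 lower, 1 and 4, and 0 and 5, in that order. Sinusoidal endothelial markers had 5 and 0, 8 and 0, and 1 and 1. Macrophage markers had 0 and 2, 0 and 2, and 0 and 1. T, NK and B cell markers had 1 and 0, 2 and 0, and 0 and 0. Neutrophil markers had 0 and 0, 0 and 0, and 1 and 0. Intestinal markers had 6 and 1, 1 and 7, and 0 and 8.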

How the data were processed

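Liver RNA from 4 pooled groups was sequenced as 16 poly(A) libraries, with 4 analytical replicates a group. The authors deposited raw whole-number counts per Ensembl gene, with no normalization. The aligner was STAR 2.5.2b with build GRCm38, after bcl2fastq 2.19.1.403 and FastQC 0.11.5, per the submitters' processing notes. No source used here names the counting program, its strand setting or any filter. Of 53372 IDs, 53267 matched the GENCODE M21 annotation, which gave coordinates and exon lengths.

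Counts were tested in edgeR 4.0.16 under R 4.3.3, with TMM scaling, the default low-count filter, 1 factor for group over all 16 libraries (12 residual degrees of freedom) and Benjamini-Hochberg adjustment over 17810 genes. A gene was called at an adjusted p under 0.05, and the SE of a log2 fold change is its size divided by the square root of the F statistic. Totals of 14434761 to 45109243 counts set the precision. p-values measure the spread between libraries of a pool and not between animals. Libraries of a group differed by more than sampling noise (chi-square per degree of freedom 5.90 to 800), so none was merged.

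The members and gene lists were chosen with earlier results of these data known. All members are named. For each other list up to 4 genes called against CTRL are named, by largest fold change, except 1 gene that is not reported here, and for Atf3 the 5 genes of most like pattern with a mean of at least 1 CPM. Alternatives were DESeq2 1.42.0 and its size factors, upper quartile scaling, no filter, 5 CPM in 4 libraries, only the 2 groups compared, the replicate number as a block, each library left out, and the 3 libraries rich in nuclear RNA left out. Protein-coding genes alone were added after seeing the data. Methods were tested on simulated counts.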

Additional observations from a re-analysis of the deposited data

Results flagged for a closer look

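Jun in C1-1 had 134 CPM, against 143 to 144 CPM in the other 3 C1 libraries. The gap to the nearest library was 0.869 of the range of the group, above the 0.829 that marks an outlying sample among 4. It was the single such case in 40 sets of 1 gene and 1 group, where chance gives about 1 in 20.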

How the results depend on the processing

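Atf3 was called higher at all 3 concentrations under every alternative run. The number of members called in C1 was 3 at 5 CPM in 4 libraries, and in C2 it was 7 without the 3 libraries rich in nuclear RNA. In C2 against C1 it was 1 with DESeq2 and 5 without the 3 libraries. In C3 against C1 it was 0 with upper quartile scaling and at 5 CPM, 4 with only the 2 groups compared and 3 without the 3 libraries. In C3 against C2 it was 1 at 5 CPM, 0 with only the 2 groups compared and 10 without the 3 libraries. Other immediate early genes called were 14 in C1 and 3 in C2 and 1 in C3 with only the 2 groups compared, 14, 17 and 5 without the 3 libraries, and 3 in C3 with DESeq2. The cause was not tested.

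With each library left out, members called ran from 2 to 5 in C1, 2 to 4 in C2, 3 to 4 in C3, 0 to 1 in C2 against C1, 0 to 1 in C3 against C1 and 0 to 4 in C3 against C2. Other immediate early genes called ran from 2 to 5 in C1, 6 to 11 in C2 and 0 to 2 in C3. Signs of small log2 values turned, in C1 for Junb (-0.092 to 0.064) and Egr1 (-0.098 to 0.057) and in C2 for Fosb (-0.041 to 0.44), Jun (-0.064 to 0.46), Egr1 (-0.22 to 0.21), Nr4a1 (-0.032 to 0.33) and Ier2 (-0.38 to 0.14).

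Upper quartile scaling gave Junb 0.016 and Egr1 0.029 in C1, and moved the median of all genes in C2 to 0.10, against 0.03 with TMM, with 1969 genes higher and 1395 lower against 1430 and 1824. The 5 CPM filter gave Junb 0.0054 and Egr1 0.018 in C1 and Ier2 0.028 in C2, and protein-coding genes alone gave Egr1 0.00067 in C1. Without the 3 libraries the C2 values were -0.0013 for Fos, -0.19 for Fosb, -0.36 for Jun, -0.54 for Egr1 and -0.41 for Nr4a1. Over the single-gene results followed, 1623 kept direction and side of the threshold, 213 lost the call, 6 gained one and 28 turned. Those followed were the members and other listed genes already called against CTRL with all libraries. Such a called gene could lose its call but not gain one, so the lost and gained counts cannot be compared.

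With the replicate block, the members called were 5 in C1, 3 in C2 and 4 in C3, as without it, Egr1 in C2 was -0.035, and Odc1 in C1 and Jdp2 in C2 lost their calls. Same-numbered samples correlated at -0.30 to 0.51 in 24 pairs, and differently numbered ones at -0.64 to 0.59 in 72 pairs. Their own number was the best match in 10 of 48 cases. Whether same-numbered samples share more than a number cannot be told from these values. Genes called over the table were 2557 in C1 and 1492 in C2 with only the 2 groups compared, against 414 and 3254 with all groups in the fit, and DESeq2 called 924 in C1 and 768 in C3, against 414 and 249 by edgeR. Low counts limit Fosb, at 0.878 to 4.07 CPM.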
